A study of Mus musculus with 4 samples.

Results

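The 7 genes described here, Foxp3, Il2ra, Ikzf2, Ikzf4, Nrp1, Itgae and Lrrc32, are genes by which regulatory T cells are recognised, and they were taken by name from the 33696 features of the deposited count matrices. All 7 were present and had UMIs (unique molecular identifiers, each standing for 1 captured RNA molecule) in every library. The data were 4 single-cell RNA libraries of CD45+ cells. The cells were sorted as live leukocytes from tumours that grew under the skin of male C57BL/6 mice after injection of KPC pancreatic carcinoma cells, a line with the alleles KRASLSL.G12D/+ and P53LSL.R172H/+ and Pdx-Cre. In 1 group the mice were untreated. The other groups received a STING agonist (ADU-S100, injected into the tumour), an LTbR agonist (the antibody 4H8, given intraperitoneally), or the combination of both. Tumours of a group were pooled before sorting and each group gave 1 library, so a difference between groups has no replicate check, and every interval below is a 95% interval for counting error only.

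Foxp3 encodes the transcription factor that defines the regulatory T cell lineage and holds its suppressive programme in place. Il2ra (CD25) is the chain that gives the IL-2 receptor its high affinity, and regulatory T cells, which make little IL-2 themselves, depend on it. Ikzf2 (Helios) and Ikzf4 (Eos) are zinc finger factors that act beside Foxp3, Nrp1 is a semaphorin and VEGF co-receptor used as a mark of thymus-derived regulatory T cells in mice, Itgae (CD103) is the alpha chain that pairs with Itgb7 to bind E-cadherin, and Lrrc32 (GARP) holds latent TGF-beta on the cell surface.

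Upstream sequence was at hand for 3 of the 7 members, and it is shown for them because Foxp3 and Il2ra are the gene that defines the cells and its cytokine receptor, and because Nrp1 stood on the other side of the comparison described below. Each line gives the 250 bases before an annotated start from RefSeq (GRCm38.p6, plus strand), with capitals marking a match to any of 3 motifs searched on both strands: TTCNNNGAA, the spaced palindrome bound by STAT5, TAAACA, a forkhead core, and TGTGGT, a RUNX core.
Foxp3, start 1, chrX:7579426-7579675: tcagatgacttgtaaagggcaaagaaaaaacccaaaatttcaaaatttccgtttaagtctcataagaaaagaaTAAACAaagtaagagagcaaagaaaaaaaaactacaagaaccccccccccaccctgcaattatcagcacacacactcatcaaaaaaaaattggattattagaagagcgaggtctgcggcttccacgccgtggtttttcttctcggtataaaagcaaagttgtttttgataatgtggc
Foxp3, start 2, chrX:7580233-7580482: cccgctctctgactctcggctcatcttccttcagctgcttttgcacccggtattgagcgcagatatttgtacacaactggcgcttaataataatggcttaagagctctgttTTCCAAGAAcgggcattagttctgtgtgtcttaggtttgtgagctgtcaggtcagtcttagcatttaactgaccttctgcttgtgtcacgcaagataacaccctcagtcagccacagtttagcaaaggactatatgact
Il2ra, chr2:11642542-11642791: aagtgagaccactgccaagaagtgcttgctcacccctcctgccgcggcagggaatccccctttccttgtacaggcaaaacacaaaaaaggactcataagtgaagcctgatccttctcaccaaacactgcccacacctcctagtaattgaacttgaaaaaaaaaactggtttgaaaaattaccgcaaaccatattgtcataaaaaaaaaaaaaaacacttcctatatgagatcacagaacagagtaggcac
Nrp1, chr8:128358823-128359072: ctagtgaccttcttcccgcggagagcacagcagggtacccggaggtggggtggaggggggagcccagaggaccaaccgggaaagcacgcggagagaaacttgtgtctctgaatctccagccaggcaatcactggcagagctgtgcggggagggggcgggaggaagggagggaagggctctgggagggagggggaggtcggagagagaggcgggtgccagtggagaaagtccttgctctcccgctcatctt
Foxp3 start 1 held TAAACA at -177 and start 2 held TTCNNNGAA at -139, counted from the start. The windows of Il2ra and Nrp1 held none of the 3 motifs, and no matches overlapped. Over the 32817 upstream windows of that length, 7.01% held TTCNNNGAA, 12% TAAACA and 14.0% TGTGGT on either strand, so a match is common and is a description of the letters only.

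The libraries held 8730 (untreated), 15404 (STING agonist), 14634 (LTbR agonist) and 16322 (combination) cell barcodes with 52109958 to 85855398 UMIs. Median depth was 4712, 3187, 3730 and 2158 UMIs per cell, lowest in the combination library, and pairs of libraries shared 34 to 83 barcodes. After filtering, 1377, 595, 2047 and 1633 cells fell into clusters named T cell-like from their markers. Those in which Cd4 was detected but neither Cd8 chain, 263, 114, 374 and 183 cells, are called CD4 T cells here. Other classes were named in the same way and each is to be read as "-like", and the carcinoma-like cells are cells that passed the CD45 sort.

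A Foxp3 UMI was found in 88 of 263 CD4 T cells without treatment, 29 of 114 with the STING agonist, 56 of 374 with the LTbR agonist and 20 of 183 with the combination. These are shares of 33.5% (27.8 to 39.5, exact binomial interval), 25.4% (17.7 to 34.4), 15% (11.5 to 19.0) and 10.9% (6.80 to 16.4). The share was thus highest without treatment and lowest with the combination, and the intervals of the libraries that held the LTbR agonist did not reach that of the untreated library. As ratios to untreated, the shares were 0.760 (0.532 to 1.09), 0.447 (0.333 to 0.601) and 0.327 (0.209 to 0.511). With every cell thinned to 1000 UMIs, shallower cells left out (5, 3, 17 and 23 CD4 T cells) and the CD4 call made again on the thinned counts, 143, 59, 181 and 104 cells remained. The shares were 21.7%, 13.6%, 7.73% and 9.62%, which are 0.625 (0.306 to 1.28), 0.357 (0.197 to 0.645) and 0.444 (0.228 to 0.864) times the untreated share. The share with the combination was 0.730 (0.452 to 1.18) times that with the LTbR agonist alone before thinning and 1.24 (0.573 to 2.70) times after it, and both intervals spanned 1. After thinning the same ratio was 0.722 (0.479 to 1.09) over the T class and 0.501 (0.331 to 0.760) over all leukocytes.

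Free RNA can give a UMI in cells that do not use a gene. Foxp3 UMIs were found in 0.301 to 1.16% of CD8 T cells, whose median depth of 2141 to 4767 UMIs was near that of the CD4 T cells (1889 to 3714), and in 0 to 0.901% of B cells, NK cells, macrophages and monocytes, and neutrophils. Mature dendritic cells had them in 3 of 186 cells without treatment (1.61%, 0.334 to 4.64) and in 0 cells of the treated libraries. All 4 shares among CD4 T cells lay above these, with no overlap of intervals in any library. Counted over all T-class cells, whether or not a co-receptor was detected, the Foxp3+ share was 12.6% (10.9 to 14.5), 8.91% (6.74 to 11.5), 5.96% (4.97 to 7.07) and 3.37% (2.55 to 4.36). Among all leukocytes it was 2.36%, 0.401%, 0.936% and 0.381%, which puts the STING agonist library beside the combination (ratio of combination to STING agonist 0.952, 0.653 to 1.39). That order differs from the order among T cells, and the STING agonist library held the fewest T-class cells, 595 of 13227 leukocytes.

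**Figure D1:**
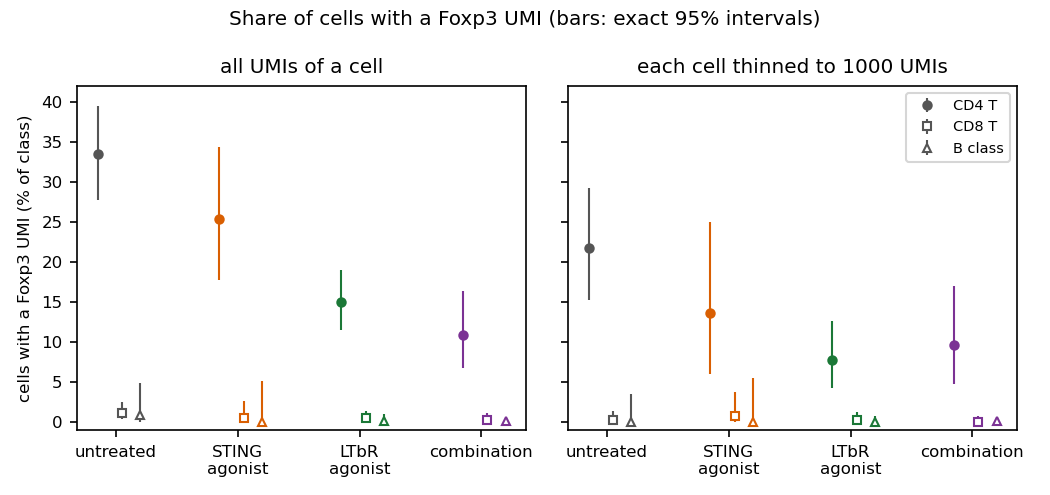
Share of cells with a Foxp3 UMI (y axis, percent of the class) in each of the 4 libraries (x axis), for CD4 T cells (filled circles), CD8 T cells (squares) and the B class (triangles), with all UMIs on the left and each cell thinned to 1000 UMIs on the right. Bars are exact 95% binomial intervals for counting error. The CD4 T cell share runs from 33.5% without treatment to 10.9% with the combination, while CD8 T cells stay at or below 1.16%, and after thinning it is 21.7% and 9.62%.

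Within Foxp3+ CD4 T cells, Foxp3 stood at 992 CPM (896 to 1096) without treatment, 863 (722 to 1023) with the STING agonist, 773 (664 to 894) with the LTbR agonist and 892 (648 to 1198) with the combination, where CPM counts a gene's UMIs per 1000000 UMIs of the same cells. These cells were chosen for having a Foxp3 UMI, which sets a floor under the level, so it is a description only. Median Foxp3 UMIs per positive cell were 4, 4, 2.5 and 2, against median depths of 3848, 4075, 3051 and 1911 UMIs. Cells called negative were shallower in every library, at 3048, 3711, 2834 and 1881 UMIs.

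Much of the Foxp3 RNA lay outside the CD4 gate. T-class cells with neither or both co-receptors detected, and no gamma-delta call, held 35.5, 38.9, 44.3 and 54.3% of all Foxp3 UMIs of the 4 libraries, beside 55.5, 56.4, 47.5 and 34.6% in Foxp3+ CD4 T cells. In the combination library, the shallowest, the larger part was outside. These Foxp3+ T cells without a co-receptor call (80, 23, 63 and 33 cells) were not used to define the main comparison, and their values are set beside it below.

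Il2ra was higher in Foxp3+ than in Foxp3- CD4 T cells of every library. Foxp3+ cells had 1669, 2778, 1644 and 2069 CPM, in the order untreated, STING agonist, LTbR agonist and combination, and Foxp3- cells 530, 263, 429 and 336 CPM. The 2 sets of levels did not overlap, and the log2 ratios were 1.65 (1.45 to 1.86), 3.39 (3.05 to 3.76), 1.94 (1.73 to 2.14) and 2.62 (2.22 to 3.02), with a median of 2.28. An exact paired permutation test over the 4 libraries (two-sided) gave the smallest p that 4 pairs allow, 0.13 as rounded, for Il2ra and for each of the other 5 members, so no member could pass a 0.05 threshold. Foxp3 itself set the groups and was not tested. The untreated Foxp3- level rested on few cells, since 1 cell held 114 of its 300 Il2ra UMIs. Without the top cell of each population the log2 ratios were 2.24, 3.31, 2.02 and 2.51.

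Ikzf2, which encodes Helios, stood at 3638, 2497, 3804 and 2677 CPM in Foxp3+ CD4 T cells and at 518, 157, 376 and 615 CPM in Foxp3- cells. No Foxp3- level came near a Foxp3+ level, and the log2 ratios were 2.81 (2.63 to 3.0), 3.98 (3.55 to 4.46), 3.34 (3.16 to 3.52) and 2.13 (1.80 to 2.44). Ikzf4, the gene of Eos, was found at 202, 85.0, 116 and 122 CPM in Foxp3+ cells and at 37.1, 6.67, 33.7 and 74.7 CPM in Foxp3- cells. It was higher in Foxp3+ cells of all 4 libraries, by log2 ratios of 2.42, 3.40, 1.79 and 0.79, but in the combination library 6 and 26 UMIs left an interval of -0.87 to 2.02.

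Itgae, the CD103 chain, stood at 429, 425, 301 and 548 CPM in Foxp3+ CD4 T cells and at 54.8, 30, 30.7 and 80.4 CPM in Foxp3- cells. Its log2 ratios of 2.95 (2.41 to 3.57), 3.76 (2.81 to 5.02), 3.28 (2.66 to 3.96) and 2.77 (1.95 to 3.58) spanned the narrowest range of the 6 members over the libraries. Lrrc32, which docks latent TGF-beta, was sparse, with 40, 6, 16 and 1 UMIs in Foxp3+ cells and 7, 5, 11 and 6 in Foxp3- cells. In CPM these were 102, 39.2, 68.7 and 20.3 against 12.4, 16.7, 11.2 and 17.2, with log2 ratios of 2.96 (1.87 to 4.45), 1.21 (-0.74 to 3.28), 2.59 (1.41 to 3.86) and 0.70 (-5.29 to 3.28). The intervals of the STING agonist and combination libraries spanned 0.

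Nrp1 ran the other way among CD4 T cells. Foxp3+ cells had 117, 52.3, 193 and 81.1 CPM, and Foxp3- cells had 405, 343, 331 and 353 CPM. Every Foxp3- level lay above every Foxp3+ level, with log2 ratios of -1.77 (-2.28 to -1.32), -2.63 (-3.96 to -1.68), -0.76 (-1.26 to -0.32) and -1.96 (-4.02 to -0.73). A Nrp1 UMI was found in 29.5, 17.2, 30.4 and 15% of Foxp3+ cells and in 48.0, 42.4, 41.5 and 32.5% of Foxp3- cells, so the share of cells and the level had the same direction. In the LTbR agonist library 1 cell held 10 of the 45 Nrp1 UMIs of Foxp3+ cells, and without the top cells the ratios were -1.88, -3.10, -1.06 and -2.64.

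Counted by a fixed rule, at least 2-fold the same way in all 4 libraries, 3 of the 6 members other than Foxp3 were higher in Foxp3+ CD4 T cells (Il2ra, Ikzf2 and Itgae) and 0 were lower. Over the 9357 genes with at least 20 UMIs in these cells, 1.67% were higher and 1.51% lower by that rule. Of the 156 genes called higher 34 had 0 UMIs in Foxp3- cells of a library, and of the 141 called lower 90 had 0 in Foxp3+ cells of a library, so the 0.5 UMI added to each sum set part of those ratios. With such a count put at a floor of 3 UMIs per library, and no call where both sides had 0, 138 genes stayed higher and 72 lower, among them the same 3 members. The median log2 ratio was 2.19 over the 6 members and 0.10 over all genes tested. Without the combination library Ikzf4 and Lrrc32 also met the rule, for 5 of 6, where 2.59% of all genes were higher and 2.68% lower. Without the LTbR agonist library Nrp1 met it as lower, where 2.52% of genes were higher and 2.03% lower. Nrp1 also met it as lower, for 1 of 6, without the cell that held most UMIs of the gene in each population and library, where 1.38% of genes were higher and 2.15% lower.

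**Figure D2:**
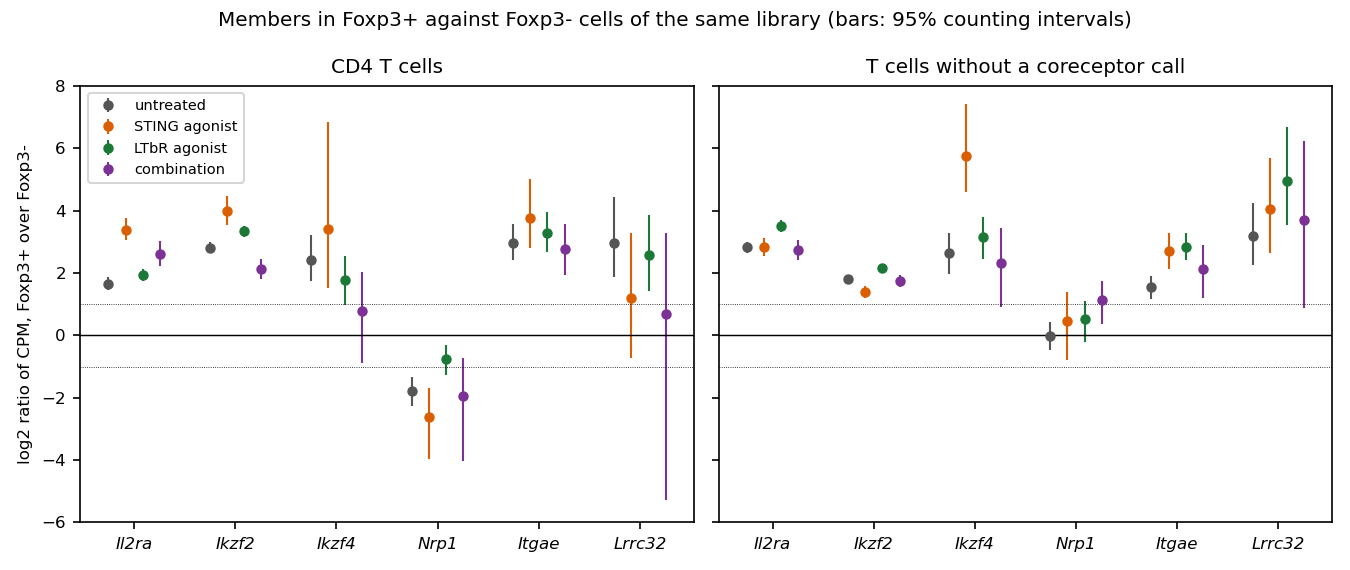
Log2 ratio of CPM in Foxp3+ over Foxp3- cells (y axis) for the 6 members other than Foxp3, 1 point per library with its 95% interval for counting error, in CD4 T cells (left) and in T cells without a co-receptor call (right), with dotted lines at 2-fold. On the left Il2ra, Ikzf2 and Itgae lie above 1 in all 4 libraries, Ikzf4 and Lrrc32 in 3, and Nrp1 lies below 0 in all 4, while on the right Nrp1 lies between -0.01 and 1.13.

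The same contrast among T cells without a co-receptor call used none of the cells above. Il2ra was higher in Foxp3+ cells there too, with log2 ratios of 2.82, 2.83, 3.51 and 2.74, as were Ikzf4 (2.63, 5.77, 3.15 and 2.32) and Lrrc32 (3.2, 4.06, 4.94 and 3.71). The ratios of Ikzf2 (1.82, 1.38, 2.16 and 1.75) and Itgae (1.54, 2.72, 2.85 and 2.12) were all above 1 and below those in CD4 T cells of the same library, and Foxp3- cells of this kind had 1467, 1353, 1111 and 1050 CPM of Ikzf2. Nrp1 was not lower in these Foxp3+ cells, with log2 ratios of -0.01 (-0.48 to 0.42), 0.45 (-0.80 to 1.39), 0.52 (-0.20 to 1.11) and 1.13 (0.37 to 1.76). The difference between the 2 cell sets was not tested.

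Markers of other cells were also found in the CD4 T cells. The summed level of the 14 macrophage and monocyte markers was 730, 1111, 945 and 974 CPM in Foxp3+ cells and 412, 433, 517 and 393 CPM in Foxp3- cells, against 13433 in the macrophage and monocyte class, and 13 of the 14 had a UMI in Foxp3+ cells, with Chil3 at 0. All 8 neutrophil markers had UMIs in both sets, with sums of 668, 2183, 339 and 933 CPM in Foxp3+ cells and 350, 1253, 514 and 491 CPM in Foxp3- cells, against 69683 in neutrophils. Mature dendritic cell markers summed to 454, 170, 176 and 284 CPM in Foxp3+ cells, with Fscn1, Ccl22, Nudt17 and Ccl17 at 0. In Foxp3- cells they summed to 267, 233, 268 and 396 CPM, against 8607 in their own class. Plasmacytoid dendritic cell markers gave 694, 608, 790 and 730 CPM and 764, 437, 658 and 554 CPM, against 15445. NK markers summed to 2.55, 0, 4.29 and 0 CPM in Foxp3+ cells, with Ncr1, Klrb1c and Gzma at 0, and to 38.9, 53.3, 42.9 and 2.87 CPM in Foxp3- cells. The 7 markers listed for type 2 innate lymphoid cells summed to 283, 399, 202 and 243 CPM in Foxp3+ cells, with Il17rb, Il5, Il13 and Rxrg at 0, and to 1102, 237, 833 and 253 CPM in Foxp3- cells, with Rxrg at 0. That list was higher in Foxp3- cells of 3 libraries, and its part in the member values was not tested. Without CD4 T cells that held a UMI of any of 7 macrophage or myeloid genes (Csf1r, C1qa, C1qb, C1qc, Adgre1, Lyz2 and Cd68), 4 of the 6 members met the 2-fold rule as higher and 0 as lower, where 1.63% of 8467 genes were higher and 1.17% lower. The part of such RNA in the member values was otherwise not tested.

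Single cells carried several members at once. Besides Foxp3, a Foxp3+ CD4 T cell had UMIs of 3.44, 3.31, 3.07 and 2.50 of the other 6 members on average, and a Foxp3- cell of 1.33, 1.06, 1.12 and 1.03. At 1000 UMIs per cell the averages were 2.23, 2.25, 2.0 and 2.30 against 0.884, 0.824, 0.611 and 0.660, so Foxp3+ cells had the higher average in all 4 libraries at either depth, while the combination was lowest only before thinning. Il2ra and Ikzf2 were found together in 86.4, 89.7, 78.6 and 60.0% of Foxp3+ cells and in 12, 9.41, 9.12 and 8.59% of Foxp3- cells. Ikzf2 alone was detected in 97.7, 96.6, 91.1 and 75.0% of Foxp3+ cells, the highest share of the 6 apart from a tie with Il2ra in the combination library, and Lrrc32 in 26.1, 20.7, 21.4 and 5.00%, the least in 3 of the 4 libraries.

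Across the 17 populations ranked, Foxp3+ T cells without a co-receptor call and Foxp3+ CD4 T cells held the first 2 places by median CPM for Il2ra, Ikzf2, Ikzf4 and Lrrc32, and for Foxp3 by their definition. Foxp3+ CD4 T cells stood above every population without Foxp3 in all 4 libraries for Il2ra, Ikzf2 and Lrrc32. The nearest Foxp3- population for Il2ra was the gamma-delta T cells (328 to 789 CPM), followed by Foxp3- CD4 T cells (263 to 530), whose ranges overlapped. Mature dendritic cells, the Ccr7 and Fscn1 class, had 253, 248, 276 and 170 CPM of Il2ra, and no interval of these reached a level in Foxp3+ cells. For Ikzf2 the neighbours were the Foxp3- T cells without a co-receptor call and then, with overlapping ranges, gamma-delta T cells (395 to 760), NK cells (337 to 689) and CD8 T cells (393 to 587). The position of Lrrc32 was less firm, since it rested on 1 UMI in the combination library and was lost after thinning and when T cells were taken by their UMIs alone.

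Ikzf4, Itgae and Nrp1 were not highest in Foxp3+ CD4 T cells everywhere. Ikzf4 stood at 118, 111, 125 and 62.9 CPM in mature dendritic cells, which overlapped its range of 85.0 to 202 in Foxp3+ CD4 T cells, while plasmacytoid dendritic cells had 0 Ikzf4 UMIs in all 4 libraries. Itgae was highest in type 1 conventional dendritic cells (cDC1), a class that uses CD103 in tissues, at 843, 521, 766 and 643 CPM against 429, 425, 301 and 548 in Foxp3+ CD4 T cells. That single class held 57.3, 42.5, 38.0 and 43.7% of all Itgae UMIs, and the gamma-delta T cells followed the T cells with Foxp3 at 220, 197, 202 and 222 CPM.

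Nrp1 was highest in Foxp3- CD4 T cells, whose range of 331 to 405 CPM lay above that of every other population. Carcinoma-like cells came next at 178, 165, 173 and 216 CPM, with a range that overlapped those of Foxp3+ T cells without a co-receptor call (110 to 313, and above the carcinoma-like cells in the untreated and combination libraries), plasmacytoid dendritic cells (70.6 to 186) and CD8 T cells (114 to 225). Most Nrp1 molecules were in macrophages and monocytes, which held 67.0, 77.6, 69.3 and 64.9% of the Nrp1 UMIs at a level of 141, 76.8, 105 and 88.6 CPM. Foxp3+ CD4 T cells held 0.0970 to 0.747% of the Nrp1 UMIs.

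Foxp3- CD4 T cells, where Nrp1 was highest, were also divided by whether a Nrp1 UMI was present, in 84, 36, 132 and 53 cells with one and 91, 49, 186 and 110 without, in the order untreated, STING agonist, LTbR agonist and combination. Of 8654 genes with enough UMIs, 13 (0.150%) were at least 2-fold higher and 7 (0.0809%) at least 2-fold lower in Nrp1+ cells of all 4 libraries. Of the 84 genes on the fixed lists, only Il10, the gene of the suppressive cytokine IL-10, was called, with 1, 0, 1 and 0 UMIs in Nrp1+ and 37, 6, 89 and 29 in Nrp1- cells. With the floor of 3 UMIs in place of the 0, the log2 ratio with the STING agonist was -0.91, short of 2-fold, and that with the combination was -2.65. The members Il2ra (0.99, 0.57, 0.33 and -0.90), Ikzf2 (-0.85, 0.77, -0.25 and -2.41) and Itgae (-1.25, -1.49, 0.51 and -2.24) changed sign between libraries. Ccr8, a chemokine receptor, was higher in Nrp1+ cells of 4 of 4 libraries by less than 2-fold (0.64, 0.82, 0.95 and 0.97). It was not particular in this, since other uncalled list genes also kept the same sign in all 4 libraries. Among them Ebi3 and Gata3 were higher, and Lef1 and Satb1 lower, in Nrp1+ cells. The members Ikzf4 and Lrrc32 also had both signs, so 0 of the 5 members compared were called in either direction.

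**Figure D3:**
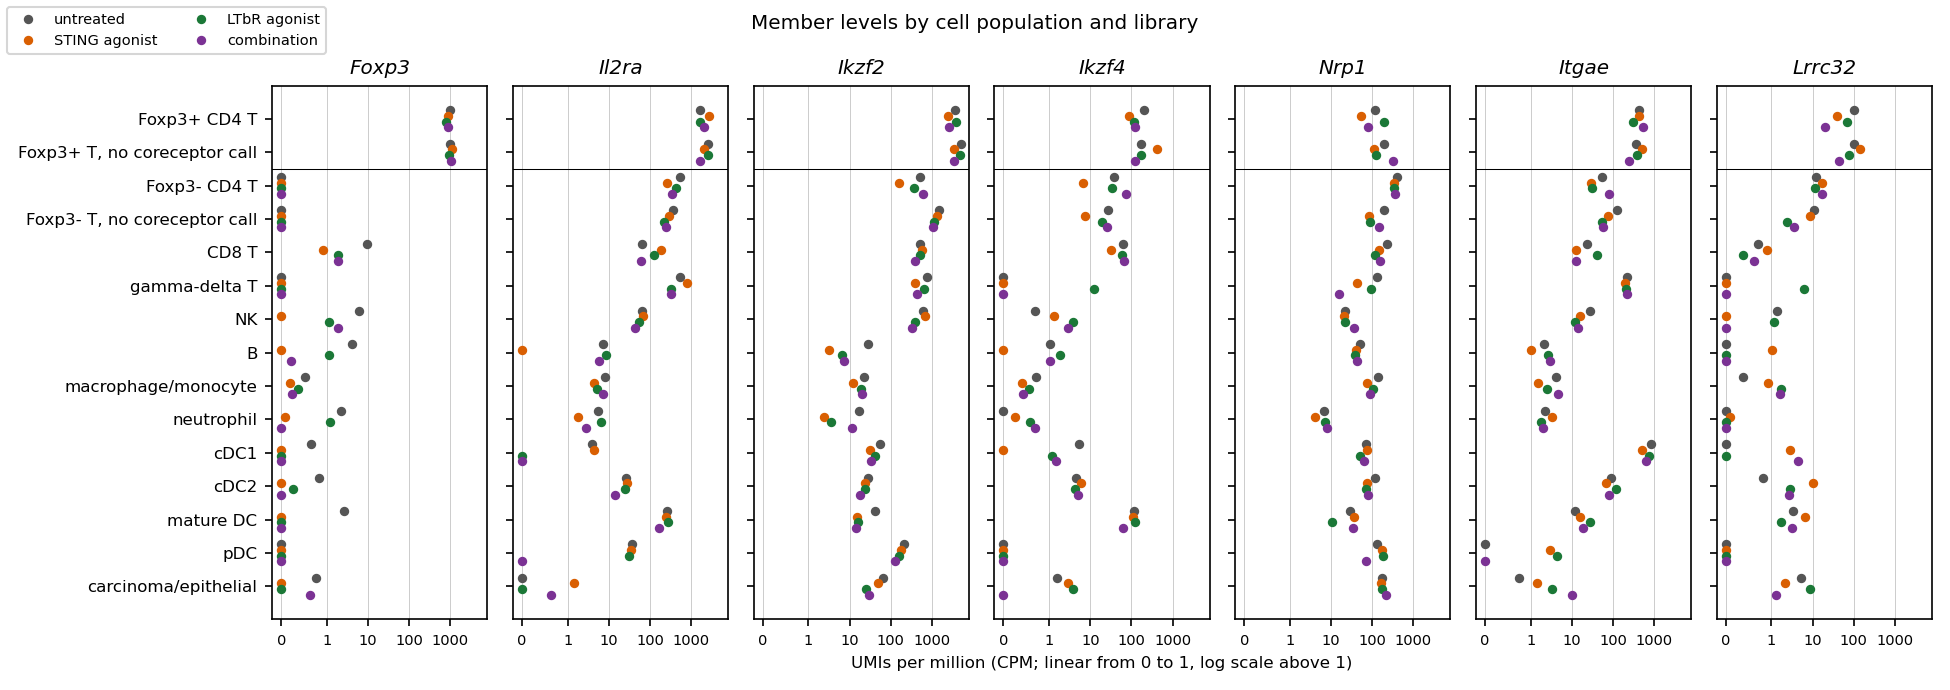
Level of each of the 7 members (x axis, CPM, linear from 0 to 1 and log scale above) in 15 of the 17 populations (y axis), with 1 point per library and a line under the Foxp3+ populations. Foxp3+ T cells lie farthest right for Foxp3, Il2ra and Ikzf2, cDC1 for Itgae (521 to 843 CPM), and Foxp3- CD4 T cells for Nrp1 (331 to 405 CPM).

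Levels in Foxp3+ CD4 T cells were next set against the untreated library. With the STING agonist, Il2ra had a log2 ratio of 0.74 (0.56 to 0.91) and Ikzf2 of -0.54 (-0.71 to -0.38), from 2778 against 1669 CPM and 2497 against 3638 CPM. Ikzf4, Nrp1 and Lrrc32 were more than 2-fold lower (-1.20, -1.09 and -1.28), on 13, 8 and 6 UMIs, and Foxp3 (-0.20, -0.50 to 0.09) and Itgae (-0.01, -0.45 to 0.41) had intervals that spanned 0. By this fold, 0 of the 6 members other than Foxp3, whose UMIs chose the cells, were higher and 3 lower, against 3.48% higher and 6.46% lower of the 4800 genes with enough UMIs. None of the 3 was 2-fold apart when T cells were taken by UMIs alone, when T cells lacking a Cd8 or Trdc UMI were used, by the mean over cells, or without cells holding myeloid UMIs, and after thinning Ikzf4 and Lrrc32 changed sign (1.22 and 0.37).

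The LTbR agonist library gave 0 of these 6 members past 2-fold in either direction, where 4.38% of 5280 genes were higher and 3.24% lower. Il2ra (-0.02, -0.21 to 0.16) and Ikzf2 (0.06, -0.06 to 0.19) were within counting error of the untreated level. Foxp3 stood at -0.36 (-0.62 to -0.10), Itgae at -0.51 (-0.94 to -0.10), Ikzf4 at -0.78 (-1.49 to -0.15) and Nrp1 at 0.72 (0.09 to 1.34). With the combination, 0 of the 6 were higher and 1 lower (Lrrc32, on 1 UMI), where 8.57% of 4247 genes were higher and 9.14% lower. Its 20 Foxp3+ CD4 T cells gave Ikzf2 -0.44 (-0.71 to -0.18), Il2ra 0.32 (-0.01 to 0.61) and Itgae 0.38 (-0.29 to 0.95).

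Foxp3+ T cells without a co-receptor call gave Ikzf2 levels of 5175, 3523, 4958 and 3536 CPM. The log2 ratios to untreated were -0.55 (-0.74 to -0.37) with the STING agonist, -0.06 (-0.18 to 0.06) with the LTbR agonist and -0.55 (-0.75 to -0.35) with the combination. Ikzf2 thus lay lower in both libraries that held the STING agonist and near the untreated level with the LTbR agonist alone, in CD4 T cells and in T cells without a co-receptor call. In thinned CD4 T cells, however, the combination stood at 0.36 (10 Foxp3+ cells) and the LTbR agonist also at 0.36, and without cells holding the myeloid UMIs named above the STING agonist stood at -0.17. Il2ra did not repeat in the same way, with -0.29 (-0.55 to -0.05) for the STING agonist in these cells against 0.74 in CD4 T cells, where 1 cell held 102 of the 425 UMIs and the ratio without the top cells was 0.53 (0.33 to 0.72). Other members also lay on opposite sides of 0 in the 2 cell sets. With the STING agonist Ikzf4 stood at 1.34 (0.65 to 2.01) in T cells without a co-receptor call and -1.20 (-2.22 to -0.39) in CD4 T cells, and Lrrc32 at 0.58 (-0.57 to 1.59) and -1.28 (-2.91 to -0.13). With the combination Il2ra stood at -0.60 (-0.91 to -0.32) and 0.32 (-0.01 to 0.61), and with the LTbR agonist Nrp1 stood at -0.61 (-1.41 to 0.11) and 0.72 (0.09 to 1.34).

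In Foxp3- CD4 T cells, which include activated conventional cells, 5 members had at least 20 UMIs in each comparison. With the STING agonist Il2ra (-1.0, -1.39 to -0.65), Ikzf2 (-1.71, -2.20 to -1.28) and Ikzf4 (-2.19, on 2 against 21 UMIs) were at least 2-fold lower, 3 of 5, where 5.98% of 6073 genes were lower and 2.96% higher. Without the top cell of each library Il2ra stood at -0.54 (-0.97 to -0.14), short of 2-fold. The markers listed for type 2 innate lymphoid cells also differed between libraries in these cells. They summed to 1102 CPM without treatment and 237, 833 and 253 CPM with the STING agonist, LTbR agonist and combination. Their part in the member ratios was not tested. The LTbR agonist gave 0 of 5 in either direction (3.81% of 7822 genes higher and 1.87% lower), and the combination gave 1 higher, Ikzf4 at 1.00 (0.12 to 1.91), and 0 lower (3.36% of 6364 genes higher and 3.21% lower). Without the top cell of each library that Ikzf4 value was 0.90 (-0.05 to 1.87), short of 2-fold and with an interval that spanned 0. Nrp1 had log2 ratios of -0.23, -0.29 and -0.19, and its level in these cells lay between 331 and 405 CPM in all 4 libraries.

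Over the whole T class, which mixes the levels with the share of Foxp3+ cells, Foxp3 stood at 120 CPM without treatment and 89.4, 52.1 and 35.3 CPM with the STING agonist, LTbR agonist and combination. The log2 ratios were -0.42 (-0.65 to -0.20), -1.20 (-1.40 to -1.02) and -1.76 (-2.06 to -1.48). Lrrc32 was the other member past 2-fold, at -1.16 and -1.80 in the last 2, so 2 of 7 were lower in each, where 2.46% and 2.50% of genes were lower and 4.04% and 2.96% higher. With the STING agonist 0 of 7 were past 2-fold, where 3.57% of genes were lower and 2.29% higher. All 7 members had intervals below 0 with the LTbR agonist and with the combination. Lrrc32 stood higher in the treated libraries in macrophages and monocytes, which held 9.48% of its UMIs without treatment and 39.3, 46.0 and 63.3% with the STING agonist, LTbR agonist and combination. Its level there was 0.376, 0.930, 1.73 and 1.66 CPM on 11, 42, 69 and 50 UMIs, with log2 ratios of 1.26 (0.32 to 2.41), 2.15 (1.27 to 3.27) and 2.09 (1.18 to 3.23). Among CD8 T cells, Il2ra was higher with the STING agonist (182 against 62.4 CPM, log2 ratio 1.55, 1.25 to 1.85) and with the LTbR agonist (124 CPM, 0.99, 0.72 to 1.26) while the combination stood at 62.3 CPM.

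**Figure D4:**
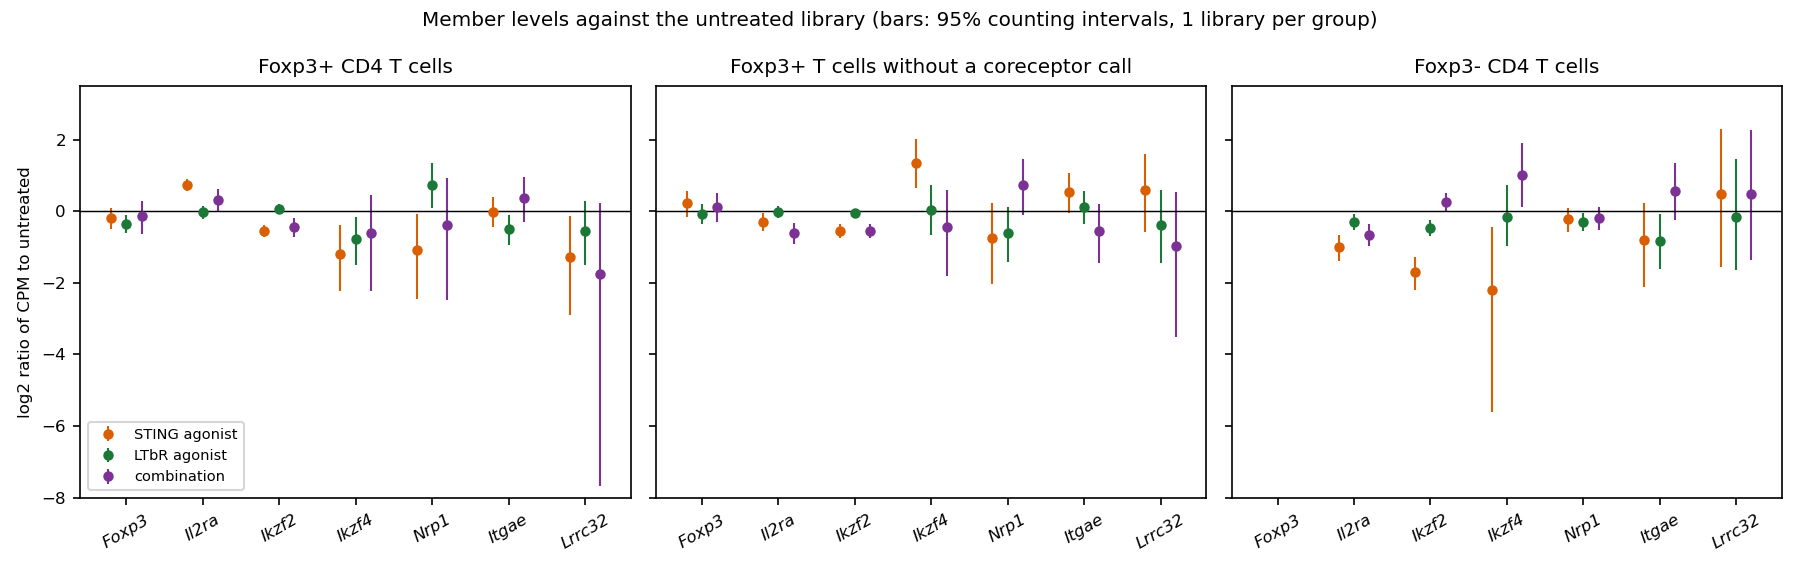
Log2 ratio of CPM to the untreated library (y axis) of each member (x axis) in Foxp3+ CD4 T cells (left), Foxp3+ T cells without a co-receptor call (middle) and Foxp3- CD4 T cells (right), for the STING agonist, the LTbR agonist and the combination, with 95% intervals for counting error. Ikzf2 lies between -0.55 and -0.44 in both Foxp3+ panels with the STING agonist and the combination, and at 0.06 and -0.06 with the LTbR agonist.

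Partners and ligands of the members were described by a list of 21 genes, 19 of which had enough UMIs. Like the lists that follow, it was chosen with earlier results of these data known. By the 2-fold rule 2 were higher in Foxp3+ CD4 T cells and 3 lower (Tgfbr2, Il2 and Sema4a), where 1.67% of all genes were higher and 1.51% lower. Tgfbr2 alone stayed 2-fold lower with the floor of 3 UMIs in place of 0, where 72 of 9357 genes stayed lower. The median log2 ratio of the list, 0.04, lay by that of all genes (0.10). Itgb8 and Itgav, the chains of the integrin that releases TGF-beta from its latent form held by GARP, were the 2 higher ones. Itgb8 had 561, 457, 524 and 527 CPM in Foxp3+ cells against 91.9, 30, 40.9 and 68.9, and Itgav 2607, 2327, 1683 and 2190 against 637, 673, 659 and 773. Of the rest of that axis, Tgfb1 had ratios near 0 (-0.16, -0.36, -0.12 and -0.04) and Tgfbr2, the TGF-beta receptor chain, was among the lower genes (-1.66, -2.46, -2.50 and -1.68). Nrros, which docks latent TGF-beta in myeloid cells, changed sign between libraries.

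The IL-2 axis showed the alpha chain apart from the others. Il2rb, the beta chain, had log2 ratios of 0.60, 0.49, 1.10 and 0.76, and Il2rg, the common gamma chain, 0.13, -0.31, -0.06 and 0.62. Il2 itself had 0 UMIs in the Foxp3+ CD4 T cells of all 4 libraries and 8, 8, 123 and 24 in Foxp3- cells, and the interval of its ratio lay below 0 in 2 libraries. Cish, a target of STAT5, lay between -0.10 and 0.18. Itgb7, the partner of Itgae, was higher in each library but below 2-fold in 3 (0.85, 0.42, 0.60 and 1.42), and its ligand Cdh1 had 12 UMIs in all. The Nrp1 ligand Sema4a had 3, 3, 4 and 0 UMIs in Foxp3+ cells against 34, 15, 76 and 22, with an interval below 0 in 2 libraries.

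Of 23 effector molecules and receptors of regulatory T cells with enough UMIs, 8 were higher by the rule and 0 lower. Over all genes 1.67% were higher and 1.51% lower. The median log2 ratio of this list was 1.12, against 0.10 over all genes. Klrg1, an inhibitory lectin of activated cells, had ratios of 2.28, 5.24, 4.38 and 3.64, and Tnfrsf9 (4-1BB) of 2.55, 1.91, 2.02 and 1.74. Areg, the growth factor amphiregulin, stood at 1439, 2183, 1584 and 1095 CPM against 458, 563, 265 and 253. Ctla4, the inhibitory receptor that takes up CD80 and CD86, had 4187, 3509, 2808 and 4847 CPM in Foxp3+ cells and 1517, 1090, 942 and 925 in Foxp3- cells, so it was abundant in both. The remaining 4 were Tnfrsf4 (OX40), Entpd1 (CD39, which breaks down extracellular ATP), Capg and Izumo1r, the last 2 named after their values were seen. Il10 was higher in 4 of 4 libraries but by unequal amounts (0.10, 2.32, 1.39 and 2.82), and Pdcd1 was the 1 gene of the list lower in all 4.

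Among 21 transcription factors, 1 was higher and 2 were lower by the rule, where 1.67% of all genes were higher and 1.51% lower. Their median log2 ratio was -0.19, against 0.10 over all genes. Tcf7, the gene of TCF1, a factor of naive and memory-like T cells, had log2 ratios of -5.13, -5.24, -3.67 and -3.82, and Bach2, which restrains effector genes, of -2.23, -3.36, -3.08 and -1.78. The 1 higher gene, Myb, rested on 67 UMIs and was not among the genes with at least 100. Of the Ikaros family beyond the members, Ikzf1 was lower in each library (-1.72, -1.43, -1.42 and -0.83) and Ikzf3 changed sign between them. The 16 genes of conventional CD4 T cells gave 0 higher and 6 lower, with a median of -1.39, against the same shares and median over all genes. The lower ones were the cytokines Ifng, Il17a, Il4 and Il21, the activating receptor Cd226 and the phosphodiesterase Pde3b. Ifng had 2, 0, 1 and 0 UMIs in Foxp3+ against 96, 22, 125 and 89 in Foxp3- cells. Neither Il4 nor Il21 had a UMI in any Foxp3+ CD4 T cell, and for Il4, with 12, 6, 161 and 7 UMIs in Foxp3- cells, the interval of the ratio lay below 0 in 2 of 4 libraries. With the floor of 3 UMIs in place of 0, Ifng, Cd226 and Pde3b stayed 2-fold lower in all 4 libraries, Il17a, Il4 and Il21 did not, and the median was -1.09. Over all genes 72 of 9357 stayed lower with that floor, and the median was 0.23.

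**Figure D5:**
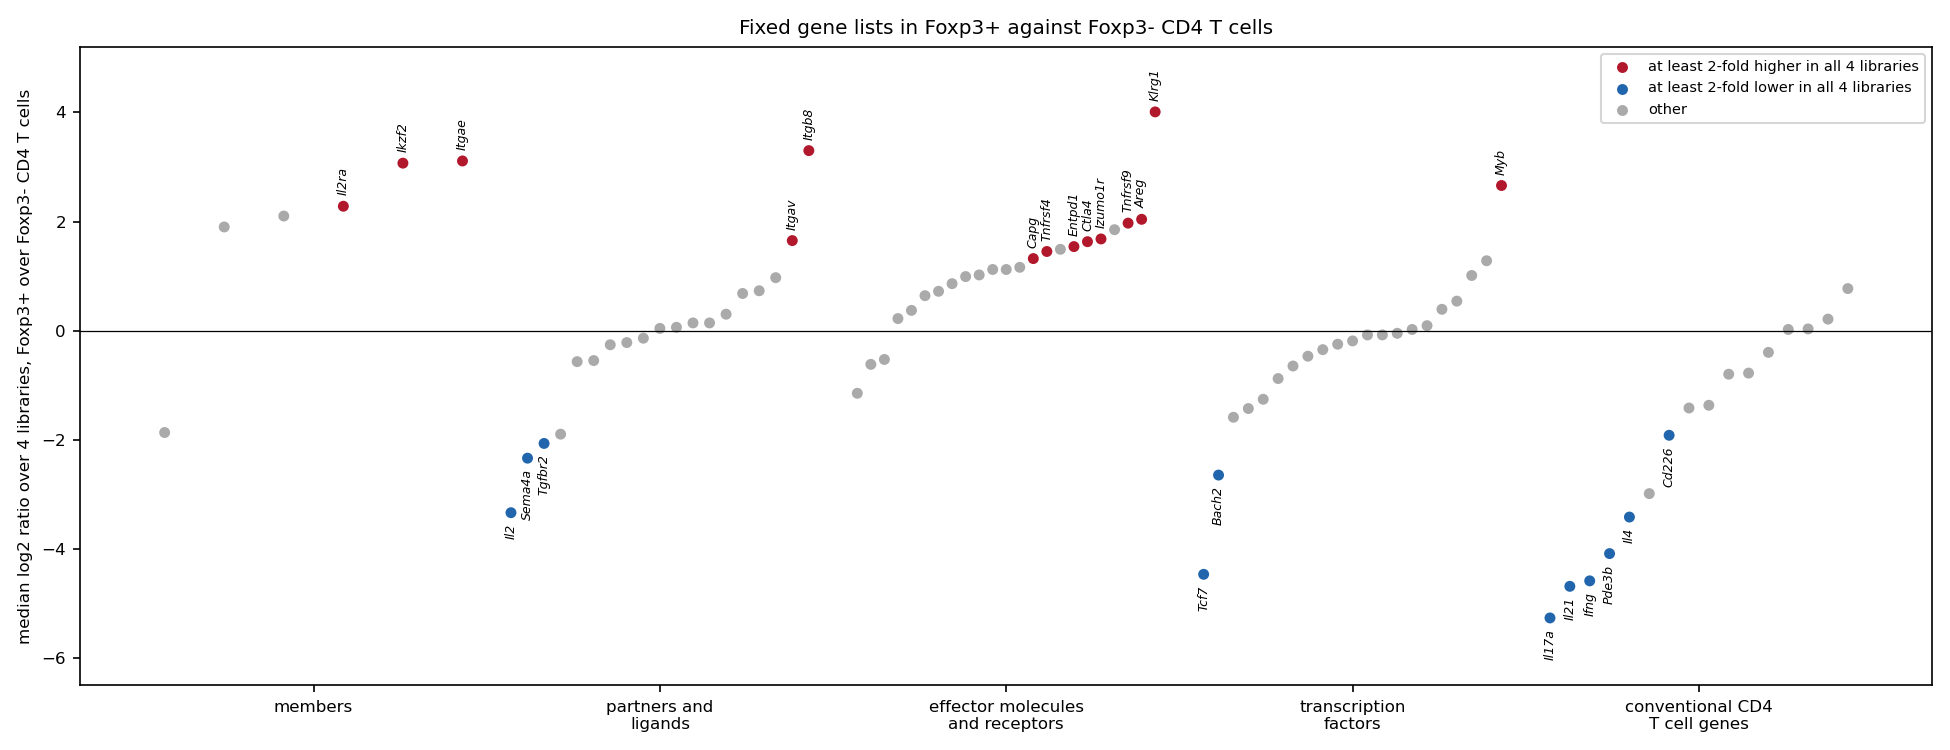
Median over the 4 libraries of the log2 ratio of Foxp3+ over Foxp3- CD4 T cells for each gene of the fixed lists with at least 20 UMIs, with genes at least 2-fold higher in all 4 libraries in red and at least 2-fold lower in blue, with 0.5 UMI added to each sum. The red genes lie among the members, the partners and the effector molecules, with Myb, and the blue genes among the partners, the transcription factors and the conventional genes.

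Over all genes, the 10 genes with the largest smallest-library ratio toward Foxp3+ CD4 T cells were Tnfrsf8, Ky, Gzmb, Rln3, Itgae, Cep112, Itgb8, Msrb3, Dab2ip and Dynlt5. Rln3 and Dab2ip had 0 UMIs on both sides in the combination library, so their place there was set by the added UMI and the depths. Tnfrsf8 (CD30) had log2 ratios of 4.16, 5.32, 3.92 and 4.41 on 106 UMIs in Foxp3+ and 13 in Foxp3- cells, and Gzmb, the granzyme B gene, 3.23, 3.76, 4.16 and 3.05 on 867 and 181. Itgae was thus the only member in that group. The 5 with the largest smallest-library ratio the other way were Tnfsf8, Ccl1, Ifng, Dlg2 and Dthd1, each with 0 UMIs in Foxp3+ cells of at least 2 libraries, so their order depended on the UMI added. Tnfsf8, which encodes the ligand of CD30, had 13 UMIs in Foxp3+ and 1872 in Foxp3- cells, so receptor and ligand lay on opposite sides, and Ccl1, a CCR8 ligand, had 0 and 760, with intervals below 0 in 4 of 4 libraries for both.

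Genes with the pattern most like each member were ranked by Pearson's r of log2(CPM + 1) over 64 pairs of population and library, among 13576 genes. The points share libraries and depth, and T cell populations among them were split by Foxp3 UMIs, so r is given as a description. Values of r with Foxp3 therefore restate in part the comparison of Foxp3+ with Foxp3- cells. Foxp3 was followed most closely by Tnfrsf8 (0.85), Ky (0.85), Pcsk1 (0.83), Klrg1 (0.82) and Nckap5 (0.81), and Lrrc32 by Pcsk1 (0.87), Nckap5 (0.86) and Msrb3 (0.82). Il2ra was nearest to Hopx (0.91), Slamf1 (0.88) and Cd5 (0.87), Ikzf4 to Tnfrsf4 (0.88), Slamf1 and Sdf4, Ikzf2 to Reps1 (0.89), Sntb1 and Leprotl1, Itgae to Tap2 (0.78), Fnbp1 and Elovl5, and Nrp1 to Ndufv1 (0.85), Fkbp1a and Zcchc17. Among the members, Foxp3 and Lrrc32 (0.73), Il2ra and Ikzf2 (0.73) and Ikzf4 and Lrrc32 (0.73) were the closest pairs, and Foxp3 and Nrp1 (0.21) the farthest apart.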

How the data were processed

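The authors deposited, per the file headers, raw UMI counts per gene and cell (filtered 10x 5′ matrices, Cell Ranger 8.0.1), with no normalization; the submitters' processing notes name Cell Ranger 7.1.0 and mm10. Fluorescence-sorted CD45+ cells of 4 groups were used, 1 pooled library each. From these counts, cells with 300 to 5000 genes and at most 6% mitochondrial UMIs were kept. Scrublet's own threshold marked 0 or 1 cells, so the top-scoring 0.4% per 1000 barcodes (305 to 1066 cells) were removed as doublets instead. Cells were clustered (scanpy 1.11.5, Leiden, 2000 variable genes without members and list genes, 30 components, resolution 1, 34 clusters), and clusters were named from at least 3 fixed markers (2-fold higher, in at least 10% of cells), thresholds that were adapted after the data had been seen; 477 cells stayed unnamed. UMIs were summed per population and library and given as CPM, with 0.5 UMI added in log2 ratios. Intervals are exact Poisson, Clopper-Pearson and conditional binomial ones, with a log-normal interval for ratios of shares.

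Foxp3+ means at least 1 Foxp3 UMI. A gene was called when at least 2-fold the same way in all 4 libraries (treatment: 2-fold, with at least 20 UMIs over both libraries). No test between treatments was possible with 1 library per group. All members were named, and of each list up to 6 called genes with the largest smallest-library ratio and known partners of members, of all genes the 10 higher and 5 lower most extreme by their smallest ratio (without immunoglobulin, T cell receptor, mitochondrial, ribosomal, Y-linked and predicted genes and Xist), and 3 to 5 genes most like each member. The scripts were tested on simulated data. The members and lists were chosen with earlier results of these data known. Barcodes shared between libraries were kept.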

Additional observations from a re-analysis of the deposited data

Results flagged for a closer look

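Il2ra, the IL-2 receptor alpha chain, and Nrp1, the semaphorin co-receptor, lay on opposite sides of the untreated library in Foxp3+ and Foxp3- CD4 T cells. With the STING agonist, Il2ra had a log2 ratio of 0.74 in Foxp3+ cells and -1.0 in Foxp3- cells. Without the cell that held most Il2ra UMIs in each population and library, these were 0.53 (0.33 to 0.72) and -0.54 (-0.97 to -0.14). With the LTbR agonist, Nrp1 had a log2 ratio of 0.72 in Foxp3+ cells and -0.29 in Foxp3- cells, and without the top cells 0.53 (-0.17 to 1.21) and -0.28 (-0.54 to -0.03). Foxp3+ T cells without a co-receptor call did not repeat either sign, with Il2ra at -0.29 (-0.55 to -0.05) for the STING agonist and Nrp1 at -0.61 (-1.41 to 0.11) for the LTbR agonist. There was 1 library per group, so the difference between the 2 kinds of cell was not tested.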

How the results depend on the processing

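No paired analysis was possible between treatments because each had 1 library, while Foxp3+ and Foxp3- cells were paired within their library. Of the values that answer a comparison, 123 stayed within their limits under the alternatives and 22 moved, and of the others 267 stayed, 24 moved and 3 that had been past 2-fold changed sign. A count stayed if it changed by no more than a set factor, so 3 members becoming 4 was taken as stayed. Single values stayed if they lay within the main counting interval or the main range over the libraries. Values short of 2-fold also crossed 0 under some alternatives, such as Ikzf2 with the combination, at 0.36 after thinning. The Foxp3+ share of CD4 T cells stayed below the untreated share in every alternative run, with ratios of 0.625 to 0.762, 0.357 to 0.481 and 0.222 to 0.444 for the STING agonist, LTbR agonist and combination. Members at least 2-fold higher in Foxp3+ cells numbered 5, not 3, with T cells lacking a Cd8 or Trdc UMI as the population (2.23% of all genes higher) and with 2 UMIs added (2.27%), and 3 to 5 when 1 library was left out, with 0 to 1 lower. They numbered 4 after thinning, with Lrrc32 added (1.42%). With Ikzf4 added they numbered 4 by the mean over cells (1.23%) and without cells holding myeloid UMIs (1.63%). With 2 UMIs added, Lrrc32 (1 against 6 UMIs) and Ikzf4 (6 against 26) in the combination library passed through the addition itself, since the Foxp3+ set is the smaller one. Without the cell holding most UMIs of each gene 1 member, Nrp1, was lower, not 0 (2.15% of all genes). Of the 3 members 2-fold apart with the STING agonist, 0 were left when T cells were taken by UMIs without clusters, with T cells lacking a Cd8 or Trdc UMI, with the mean over cells, and without cells holding myeloid UMIs (9.02 to 14.8% of all genes apart in these). After thinning 3 were apart, now Il2ra, Ikzf4 and Nrp1 (21.2%). The count was 2 with a mitochondrial limit of 10% and no upper gene limit (9.37%), with at least 2 Foxp3 UMIs (10.5%) and with 2 UMIs added (7.08%). With the LTbR agonist (0 members) the count was 1 after thinning (19.7% of all genes apart) and by the mean over cells (11%) and 2 with at least 2 Foxp3 UMIs (8.08%), and with the combination (1 member) it was 2 after thinning (13.1%), with at least 2 Foxp3 UMIs (23.5%) and without the top cell of each gene (26.0%) and 0 with 2 UMIs added (15.8%). Against untreated, Ikzf4 with the STING agonist changed sign to 1.22 after thinning and 0.13 with T cells lacking a Cd8 or Trdc UMI, and Lrrc32 to 0.37 after thinning. Thinning gave 2.23, 2.25 and 2.0 other members per Foxp3+ cell in the untreated, STING agonist and LTbR agonist libraries. It also made the CD4 and Foxp3 calls again, which left 31, 8 and 14 such cells. The parts of depth and of the changed cell set were not tested. Transcription factors called higher were 0 with at least 100 UMIs and 1 to 2 with 1 library left out, and effector genes called lower 0 to 1. Over all genes 288 were higher and 141 lower with no minimum of UMIs (15973 genes) and 79 and 111 with at least 100 (5084 genes), against 156 and 141. Causes of the other changes were not tested. Depth limits Lrrc32, Ikzf4 and Nrp1 most, with 1 to 8 UMIs in some libraries.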

Other observations

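Foxp3+ cells were concentrated in few T-class clusters. Cluster 9, led by Tnfrsf4 and Icos, held 239, 109, 321 and 148 of the CD4 T cells, and 31.5, 24.6, 15 and 13.8% of all its cells had a Foxp3 UMI. A smaller cluster led by Nckap5, Itgb8 and Neb, of 72, 13, 57 and 29 cells, had Foxp3 UMIs in 45.8, 30.8, 45.6 and 20.7%, and 5, 1, 9 and 3 of its cells passed as CD4 T cells. Its median depth was 1141 to 1936 UMIs, against 1516 to 3209 in cluster 9.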
